A study of Mus musculus with 6 samples.

Results

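The subunit genes of the mitochondrial respiratory chain and ATP synthase were examined in mouse uteri with and without Indian hedgehog (Ihh). Members were chosen by symbol alone: a probe set belonged when its annotation gave exactly 1 gene symbol beginning Nduf with a following a, b, c, s or v and a digit, Uqcr, Cox4 to Cox8 or Atp5, or equal to Sdha to Sdhd or Cyc1. This gave 165 of 45037 probe sets and 82 of 18193 named genes, of which 80 genes were bright enough to be tested beside 15530 genes in all. A gene was represented by the probe set with the highest mean log2 intensity. Ndufb4 and Cox7b2 had 1 member probe set each, too dim at 26.5 to 41.6 and 14.6 to 28.0 intensity units. They have no test, and nothing is read from these probe sets about the level of the genes. By complex, 32 tested genes belonged to complex I, 4 to complex II, 9 to complex III, 18 to complex IV and 17 to complex V.

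The respiratory chain sits in the inner mitochondrial membrane. Complexes I and II feed electrons from NADH and succinate to ubiquinone, complex III passes them to cytochrome c and complex IV to oxygen, and complex V (ATP synthase) uses the resulting proton gradient to make ATP. A few catalytic subunits are encoded by mitochondrial DNA, and all members described here are nuclear genes, many of them for small accessory subunits that surround a conserved core. In the uterus nearly every cell type holds these complexes, the smooth muscle of the wall included.

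Control samples (3) carried floxed Ihh alleles (Ihhf/f), and Ihh-ablated samples (3, Ihhd/d) carried the same floxed alleles and PRcre, in which the progesterone receptor gene drives Cre, so that recombination is limited to cells that express this receptor. Both groups were studied on day -1 of an artificial decidual response, and total RNA of uterine tissue was hybridised to 1 Affymetrix array per sample. PRcre is present in ablated samples only, so its own effect and that of Ihh loss cannot be told apart. The source field of the labels names SmoM2 in both groups, against titles, genotypes and design text, and it was not used. The labels do not say whether the samples came from separate mice, so the p-values may reflect technical spread only.

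The arrays had median intensities of 121.4 to 142.5, the highest in control replicate 2, and no 2 arrays were identical. Ihh itself had intensities of 163.9, 162.3 and 140.2 on the control arrays and of 121.4, 93.3 and 135.4 after ablation, and the difference did not pass (limma adjusted p = 0.164). Whether its probe set lies in the deleted part is not stated. The hedgehog target Gli1 fell 5.76-fold, from 419 ± 84.7 to 72.0 ± 6.32 (SD, n = 3 each, limma adjusted p = 0.000492), in the direction of the labels. Smooth muscle markers (10 genes) summed to intensities of 54383 to 58766 in control and 55916 to 56208 in Ihh-ablated samples, and 1 of them fell, Actg2 (-0.25, adjusted p = 0.0337). Stromal markers (13 genes) summed to 54430 to 58727 and 52667 to 54717, with 2 that fell, Thy1 (-1.44, adjusted p = 0.00139) and Vim (-0.37, 0.0139), and 1 that rose, Dcn (0.24, 0.0488). Transcripts of other tissues varied between arrays. Striated muscle markers (16 genes) summed to 18572 in control replicate 3, against 6381 and 6258 in the other controls and 2862 to 3436 in the Ihh-ablated arrays. Of these 1 fell, Acta1 (-1.73, limma adjusted p = 0.00208), a large part of the sums. It had intensities of 4164, 3559 and 5482 on the control arrays and of 1199, 1162 and 1593 after ablation. Pancreas markers (14 genes) summed to 106089 in Ihh-ablated replicate 2, to 4047 in control replicate 1 and to 1536 to 2326 elsewhere. White adipocyte markers (13 genes) were present in every array, at sums from 6490 to 21678 in control and from 17393 to 38028 in Ihh-ablated arrays. Markers of dividing cells summed to 6085 to 7447 in control and 2495 to 2871 in Ihh-ablated arrays, and 13 of 13 fell.

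Promoter sequences are given as a description, and a link between them and the differences was not tested. Of 3 genes for a single protein, the c subunit of the ATP synthase ring, 1 fell and 2 did not pass, with values given further on. Atp5k is shown because it also fell, while Cox6c, which fell too, had no entry under its symbol in the promoter table. Atp5g1, Atp5g2 and Atp5g3 encode the same mature c subunit behind different mitochondrial import sequences. Their starts, and that of Atp5k, are shown from 250 bases before to 30 bases after the transcription start, 5′ to 3′ on the gene's strand, from RefSeq (GRCm38.p6). All 4 lie on the minus strand: Atp5g1 at chr11:96075602-96075881, Atp5g2 at chr15:102671018-102671297, Atp5g3 at chr2:73911297-73911576 and Atp5k at chr5:108434370-108434649. Capitals mark matches, on either strand, to the NRF1 core GCGCATGCG, the ETS core CCGGAAG that GABPA binds, or the YY1 core AAGATGG. NRF1, GABPA and YY1 are transcription factors known to act on genes of the respiratory chain.
Atp5g1: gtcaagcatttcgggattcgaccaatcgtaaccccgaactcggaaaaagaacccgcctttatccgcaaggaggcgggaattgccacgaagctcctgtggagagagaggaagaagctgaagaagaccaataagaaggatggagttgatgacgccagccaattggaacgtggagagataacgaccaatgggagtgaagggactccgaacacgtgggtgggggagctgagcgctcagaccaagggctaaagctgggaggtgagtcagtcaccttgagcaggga
Atp5g2: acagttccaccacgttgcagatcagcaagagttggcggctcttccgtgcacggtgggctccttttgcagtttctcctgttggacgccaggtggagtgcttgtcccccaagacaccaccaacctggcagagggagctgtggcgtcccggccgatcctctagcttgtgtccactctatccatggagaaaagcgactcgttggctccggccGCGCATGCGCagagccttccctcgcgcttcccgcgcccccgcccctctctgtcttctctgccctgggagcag
Atp5g3: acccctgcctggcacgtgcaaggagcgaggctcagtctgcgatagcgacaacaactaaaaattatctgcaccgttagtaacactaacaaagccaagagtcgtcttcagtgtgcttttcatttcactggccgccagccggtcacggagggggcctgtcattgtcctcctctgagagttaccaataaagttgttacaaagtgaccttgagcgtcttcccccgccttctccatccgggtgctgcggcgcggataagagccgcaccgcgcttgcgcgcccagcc
Atp5k: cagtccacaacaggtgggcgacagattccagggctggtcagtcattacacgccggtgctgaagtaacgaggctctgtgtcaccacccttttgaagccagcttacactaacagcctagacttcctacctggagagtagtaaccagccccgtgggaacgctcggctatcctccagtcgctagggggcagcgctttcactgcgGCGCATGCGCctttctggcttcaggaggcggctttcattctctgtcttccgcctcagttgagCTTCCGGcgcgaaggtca
Atp5g2 holds the NRF1 letters at position -42 from the start on one strand and -41 on the other, which overlap. Atp5k holds them at -50 and -49, and the ETS letters on the reverse strand at 13 after the start. In Atp5g1 and Atp5g3 none of these letters were found in this window, which says nothing of the factors themselves. The RefSeq promoter table, with windows of 300 bases, held 66 of the 82 member genes. The NRF1 core was in 7 of these (10.6%) and in 1.95% of all 27025 genes of the table, the ETS core in 17 (25.8%) and 9.93%, and the YY1 core in 10 (15.2%) and 7.28%. Member windows also had a higher GC content (median 58.4%, against 52.8% for all genes). Median log2 differences (Ihh-ablated minus control) were -0.06 in the 7 genes with the NRF1 core and -0.09 in the 59 without, -0.09 and -0.08 for the ETS core, and -0.08 and -0.08 for the YY1 core. These motif counts are descriptions without a test.

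Between genotypes, 3 of 80 member genes fell (3.75%), 0 rose and 77 did not pass at an adjusted p under 0.05 in limma, fitted and adjusted over all probe sets. Over all 15530 genes 1.53% fell and 1.28% rose by the same rule, so a few genes separate the members' count from the background and nothing is read from it about the chain as a whole. The 3 genes were Cox6c of complex IV and Atp5g1 and Atp5k of complex V, and no change reached 1.5-fold. Counted by probe sets instead of genes, 3 of 157 fell, against a background of 1.11%. Leaving out single arrays moved the gene count from 0 (without either control replicate 1 or 2, or Ihh-ablated replicate 1, where 0.483%, 0.949% and 0.508% of all genes fell) through 1 (without Ihh-ablated replicate 3, 0.733% of all genes) to 7 (without control replicate 3, where 7.58% of all genes fell). Without both control replicate 3 and Ihh-ablated replicate 2, the arrays with striated muscle and pancreas transcripts, 5 fell, against 4.34% of all genes.

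**Figure D1:**
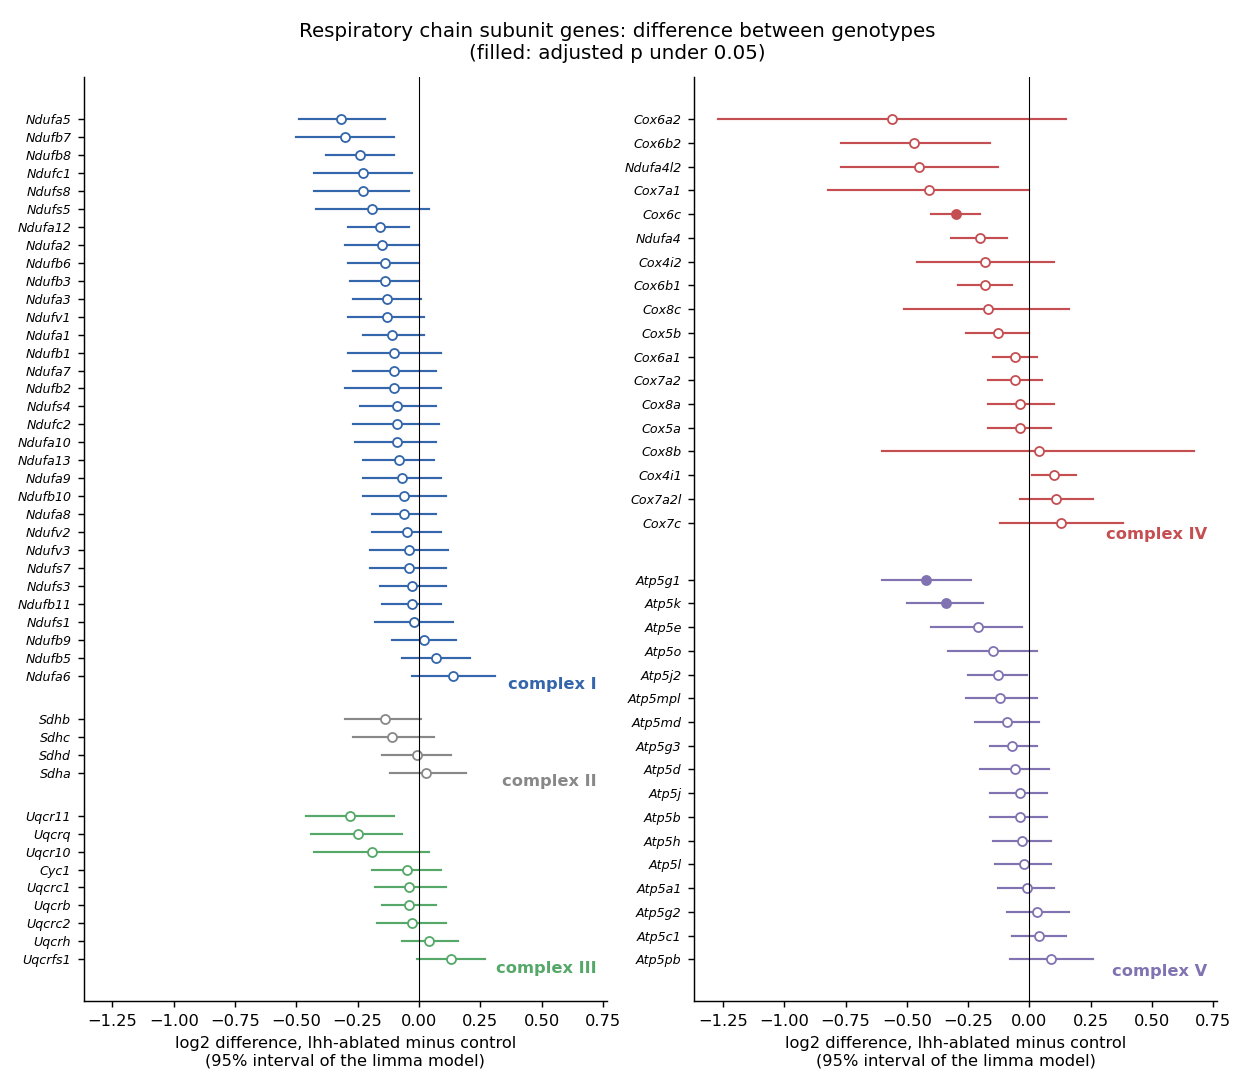
Log2 difference of intensity, Ihh-ablated minus control, for the 80 tested member genes by complex, with the 95% interval of the limma model. Filled points are the 3 genes with an adjusted p under 0.05, Cox6c, Atp5g1 and Atp5k, and 67 of 80 points lie left of 0.

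The members lay close together and mostly slightly below 0. Their median log2 difference was -0.09, with the middle of the list between -0.17 and -0.03, against a median of -0.04 between -0.21 and 0.12 over all genes. Lower means in Ihh-ablated samples were found for 67 of 80 members (83.8%) and 56.7% of all genes, but with arrays centred on their medians for 39 of 80 and 41.6%, so the direction of the list depends on the scaling. Quantile normalization gave 72 of 80 and 53.7%. Members are mostly bright, and genes in the same intensity range (mean log2 from 9.47 to 12.16, 2657 genes) had a median of 0.03, which was -0.01 after quantile normalization and 0.12 with median-centred arrays, where the members' medians were -0.13 and 0.00. The members' median minus that of these bright genes was -0.12 with the deposited values and -0.12 after quantile normalization, a description without a test. Median-centring moves all genes alike, so it leaves this value at -0.12 by construction.

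Members whose groups did not overlap were mostly lower after ablation, except with median-centred arrays. All 3 Ihh-ablated arrays lay below all 3 control arrays in 28 members (35%), against 19% of all genes, and above them in 2 members, Cox4i1 and Cox7c (2.5%), against 13.3% of all genes. With median-centred arrays both counts were 8 of 80, against 12.7% and 19% of all genes, and after quantile normalization they were 43 below and 1 above, against 18% and 12.7%. At an unadjusted p under 0.05, 19 members were lower (23.8%) and 1 higher, where all genes gave 14.2% and 9.99%. By array, the mean deviation of the 80 members from their 6-array mean was 0.01, 0.08 and 0.08 log2 in control and -0.05, -0.03 and -0.08 in Ihh-ablated replicates 1 to 3. For all genes the same means were -0.01, 0.08 and 0.00 in the controls, against -0.01, -0.03 and -0.03 after ablation. Control replicate 2 was thus raised alike in both.

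**Figure D2:**
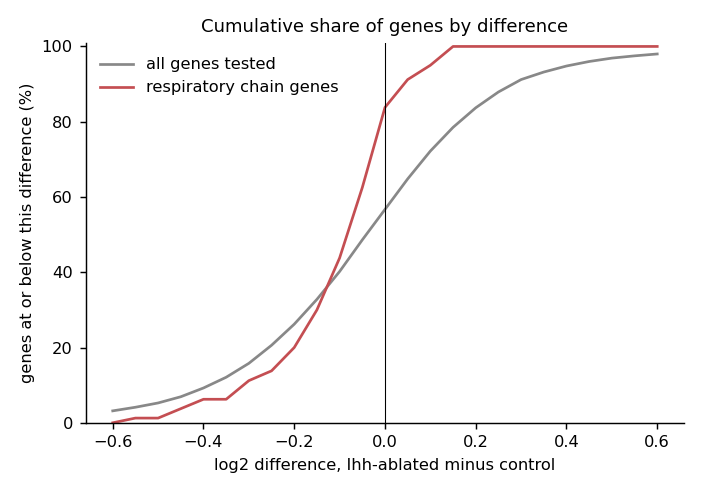
Cumulative share of genes (y axis, percent) with a log2 difference at or below the value on the x axis, for all 15530 genes tested and for the 80 member genes, read at steps of 0.05. The members' line is steeper: 83.8% of them lie at or below 0 and 100% at or below 0.15, against 56.7% and 78.5% of all genes.

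In complex I, the NADH dehydrogenase, 0 of 32 genes passed (limma, with 8 lower and 0 higher at an unadjusted p under 0.05, where 14.2% and 9.99% of all genes were), and the median log2 difference was -0.10 (-0.01 with median-centred arrays). Its lowest p was that of Ndufa5, an accessory subunit of the matrix arm, which had intensities of 1401, 1325 and 1280 on the control arrays and of 1036, 1156 and 1031 after ablation. All Ihh-ablated values lay below the control values, but the difference of -0.32 (SE 0.08) did not pass (adjusted p = 0.0735), and it passed only without control replicate 3 (adjusted p = 0.0385) and without control replicate 3 and Ihh-ablated replicate 2 together (0.0395) among 19 alternatives. The other Ndufa5 probe set differed by -0.22 (adjusted p = 0.162). Accessory subunits Ndufb7 (2300 ± 195 in control and 1868 ± 166 in Ihh-ablated samples, mean intensity ± SD, n = 3 each) and Ndufb8 (2370 ± 60.7 and 2008 ± 119) came next, at -0.30 (adjusted p = 0.110) and -0.24 (0.0897), again without overlap. The largest positive difference was that of the accessory gene Ndufa6, with 1669, 1570 and 1786 in control against 1769, 1777 and 1977 in Ihh-ablated samples, groups that overlapped (0.14, adjusted p = 0.299). Ndufc2, the complex I gene of highest mean intensity, ranged from 3481 to 4418 in control and from 3599 to 3738 in Ihh-ablated samples (-0.09, adjusted p = 0.479).

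The core subunits of complex I, most of which carry the flavin or iron-sulfur clusters, differed by -0.23 to -0.02, and none passed. Ndufs1, an iron-sulfur subunit, had intensities of 899.0, 886.3 and 904.2 on the control arrays and of 875.8, 872.8 and 909.0 after ablation, a difference of -0.02 with a 95% interval from -0.18 to 0.14. Ndufs3 (-0.03), Ndufs7 (-0.04), Ndufv2 (-0.05), Ndufv1 (-0.13) and Ndufs8 (-0.23, 95% interval -0.43 to -0.04, adjusted p = 0.161) completed the 6 core genes, with a median of -0.05 against -0.10 for the 26 accessory genes. This division into roles was made after the values had been seen and has no test. Probe sets of a gene did not always agree: the 6 of Ndufs8 ran from -0.24 to -0.05, and the 3 of Ndufv2 from -0.25 to -0.05. Over all members, 33 of 45 genes with several tested probe sets had 1 sign in all of them.

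In complex II, succinate dehydrogenase, 0 of 4 genes passed (limma, 0 at an unadjusted p under 0.05 in either direction). Sdhb, its iron-sulfur subunit, had intensities of 2242, 2506 and 2327 on the control arrays and of 2176, 2236 and 1993 after ablation. These groups just failed to overlap, and the difference of -0.14 (SE 0.07) did not pass (adjusted p = 0.248). The flavoprotein gene Sdha read 1802 ± 51.8 and 1848 ± 125 (0.03), and the membrane anchors Sdhc and Sdhd differed by -0.11 and -0.01. A dim Sdha probe set, at 68.6 to 114.0 units, differed by 0.40 (adjusted p = 0.163). Another bright Sdha probe set differed by -0.09, and the second probe sets of Sdhc and Sdhd by 0.04 and 0.10. Probe sets of these genes thus did not agree in sign.

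In complex III, cytochrome bc1, 0 of 9 genes passed (limma, with 2 lower and 0 higher at an unadjusted p under 0.05, beside the same 14.2% and 9.99% of all genes), with a median of -0.04 (0.05 with median-centred arrays). Its most negative differences belonged to small subunits. Uqcr11 had intensities of 1478, 1553 and 1592 on the control arrays and of 1286, 1375 and 1162 after ablation, a difference of -0.28 (SE 0.08, adjusted p = 0.106). Uqcrq, a small subunit beside cytochrome b, differed by -0.25 (adjusted p = 0.128), likewise without overlap. Of the subunits that carry out electron transfer, cytochrome c1 (Cyc1) was at -0.05 and the Rieske iron-sulfur protein (Uqcrfs1) at 0.13, the most positive difference of the complex (adjusted p = 0.257), with 1958, 2002 and 2134 in control against 2222, 2128 and 2304 in Ihh-ablated samples. The large core proteins Uqcrc1 and Uqcrc2 differed by -0.04 and -0.03. Uqcrb, the complex III gene of highest intensity, read 8211 ± 375 and 7977 ± 345 (-0.04).

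**Figure D3:**
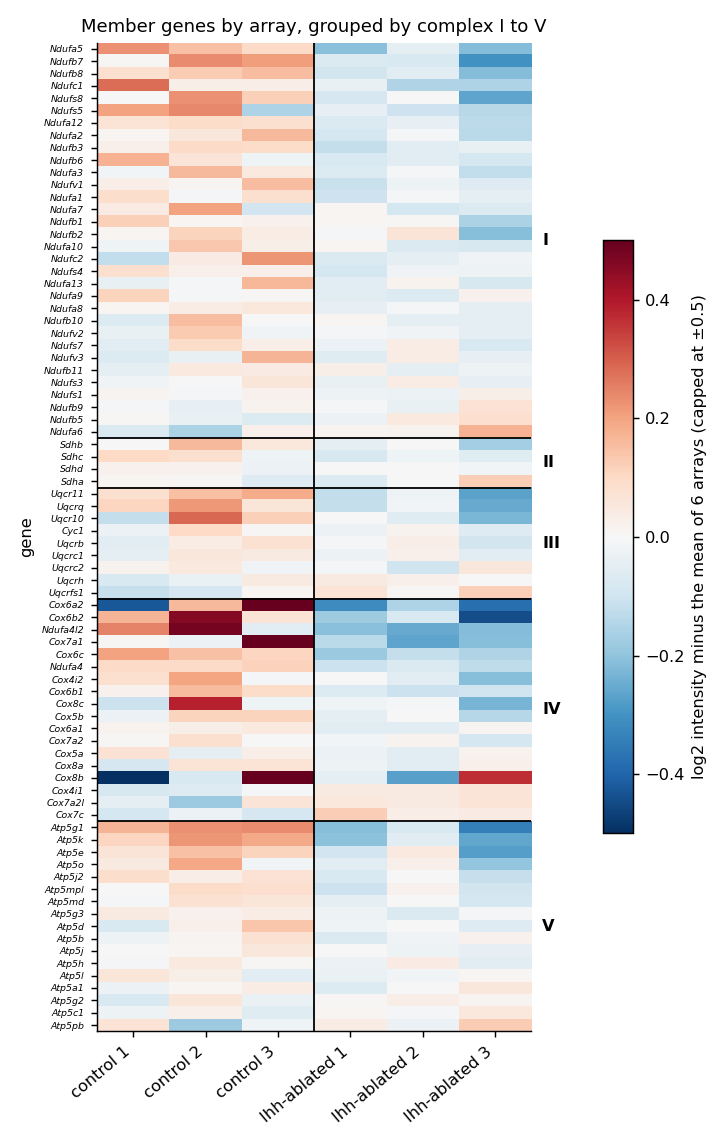
Log2 intensity of each of the 80 tested member genes on each array minus the gene's mean over 6 arrays, ordered within complexes I to V by the difference between genotypes (colours capped at 0.5 either way). Most rows change little, with mean deviations by complex between -0.09 and 0.16, and the strongest colours belong to dim complex IV genes, Cox6a2, Cox7a1 and Cox8b in control replicate 3 among them.

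Complex IV, cytochrome c oxidase, held the member of lowest p. Among its 18 tested genes 1 fell and 0 rose, which left 17 that did not pass, where 1.53% of all genes fell and 1.28% rose. At an unadjusted p under 0.05 (limma) 5 were lower and 1 higher, beside 14.2% and 9.99% of all genes. The median difference of the 18 was -0.15 (-0.06 with median-centred arrays). It was -0.06 for the 10 general or single-gene subunits and -0.29 for the 8 restricted isoforms or related genes, which are mostly dim. This division was made after the values had been seen. Cox6c, a small nuclear-encoded subunit in the membrane, had intensities of 6472, 6242 and 6065 on the control arrays and of 4961, 5191 and 5073 after ablation. Every Ihh-ablated array lay below every control array, by more than the range within either group. Cox6c fell 1.23-fold (log2 -0.30, SE 0.04, 95% interval -0.40 to -0.20, adjusted p = 0.0124), and its other probe set differed by -0.31 (adjusted p = 0.0731, which did not pass). The call was lost without control replicate 1 (adjusted p = 0.0663), control replicate 2 (0.0526) or Ihh-ablated replicate 1 (0.0679), with median-centred arrays (-0.21, 0.164), without an intensity trend in the variance (0.139) and with adipocyte markers added to the model (-0.27, 0.172). The direction held in all 19 alternatives, several of which change only the variance and could not reverse it.

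None of the remaining general subunits of complex IV passed. Cox4i1, the common isoform of the regulatory subunit 4, had intensities of 6104, 6166 and 6416 on the control arrays and of 6645, 6642 and 6733 after ablation, all above the controls, and its difference of 0.10 (95% interval 0.01 to 0.19) did not pass (adjusted p = 0.185). Cox6b1, a subunit facing the intermembrane space, differed by -0.18 (5004 ± 234 and 4408 ± 65.3, adjusted p = 0.0942). Ndufa4, long assigned to complex I and now to complex IV, had intensities of 2717, 2711 and 2749 on the control arrays and of 2358, 2419 and 2329 after ablation, groups well apart, with a difference of -0.20 (SE 0.05) that did not pass (adjusted p = 0.0823). Cox5a (-0.04), Cox5b (-0.13), Cox6a1 (-0.06), Cox7a2 (-0.06) and Cox8a (-0.04) did not pass either. The other Cox5a probe sets differed by -0.21 and -0.23 (adjusted p = 0.141 and 0.119). Cox7c (0.13, adjusted p = 0.477) had a low signal, 112.9, 117.5 and 112.9 in control against 130.5, 122.6 and 123.4 in Ihh-ablated samples. Cox6a1, the general isoform of subunit 6a, had 6607, 6668 and 6742 in control against 6279, 6284 and 6582 in Ihh-ablated samples, just apart.

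Isoforms of complex IV that other tissues favour varied widely between arrays, at low signal. Cox6a2, the heart and skeletal muscle isoform of subunit 6a, had intensities of 128.9, 193.6 and 373.3 on the control arrays and of 139.3, 155.3 and 133.4 after ablation. Its difference of -0.56 (SE 0.31, adjusted p = 0.305) was -0.15 without control replicate 3. A second, dimmer Cox6a2 probe set had 99.6, 141.3 and 134.2 in control against 95.2, 146.5 and 106.7 in Ihh-ablated samples. It differed by -0.12 (adjusted p = 0.729), and control replicate 3 was not its highest array. Cox7a1, the muscle isoform of subunit 7a, had intensities of 80.1, 78.3 and 124.2 on the control arrays and of 72.8, 66.6 and 68.9 after ablation, a difference of -0.41 (adjusted p = 0.221) that was -0.19 without that array. Control replicate 3 was the highest array for the brighter Cox6a2 probe set and for Cox7a1. It was also the highest for striated muscle transcripts, with creatine kinase Ckm at 1505 against 181.0 and 211.5 in the other controls. Myosin light chain Mylpf was at 2076 against 83.9 and 88.5. The part of that tissue in the remaining, smaller difference was not tested.

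Cox8b, the muscle and brown fat isoform of subunit 8, had intensities of 134.5, 193.4 and 313.2 on the control arrays and of 198.0, 169.0 and 263.7 after ablation (0.04, adjusted p = 0.942, and 0.36, adjusted p = 0.294, without control replicate 3). It was high in replicate 3 of both groups, in control with striated muscle markers and in both with the highest white adipocyte sum of the group (21678 and 38028). Brown adipocyte markers (8 genes, 4 of them bright enough to test) summed to 1105 to 1489 in control and 975 to 1069 in Ihh-ablated samples, with Ucp1 at 107.9 in control replicate 3 and 98.4 in Ihh-ablated replicate 3. The part of fat or muscle in the Cox8b values was not tested. Cox6b2, the testis isoform of subunit 6b, had intensities of 563.1, 688.7 and 524.6 on the control arrays and of 442.6, 474.8 and 368.0 after ablation. Its groups did not overlap, and the difference of -0.47 (SE 0.13) did not pass (adjusted p = 0.107) but passed with the replicate block (0.0310), without control replicate 3 (-0.55, 0.0414) and without that array and Ihh-ablated replicate 2 (-0.63, 0.0383).

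The other restricted or related genes gave no call. Ndufa4l2, a paralog of Ndufa4 that hypoxia induces, had intensities of 270.2, 317.2 and 219.6 on the control arrays and of 196.9, 190.9 and 195.8 after ablation (-0.45, SE 0.14, adjusted p = 0.124). It passed without control replicate 3 (-0.59, adjusted p = 0.0214). Cox4i2, the isoform of subunit 4 tied to low oxygen, had 109.8, 118.9 and 103.0 in control against 103.9, 99.8 and 89.4 in Ihh-ablated samples (-0.18, adjusted p = 0.397). Cox7a2l, which joins complexes III and IV into supercomplexes, had 2993, 2727 and 3240 in control against 3206, 3190 and 3245 in Ihh-ablated samples (0.11, adjusted p = 0.343). The testis isoform Cox8c differed by -0.17, with groups that overlapped.

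**Figure D4:**
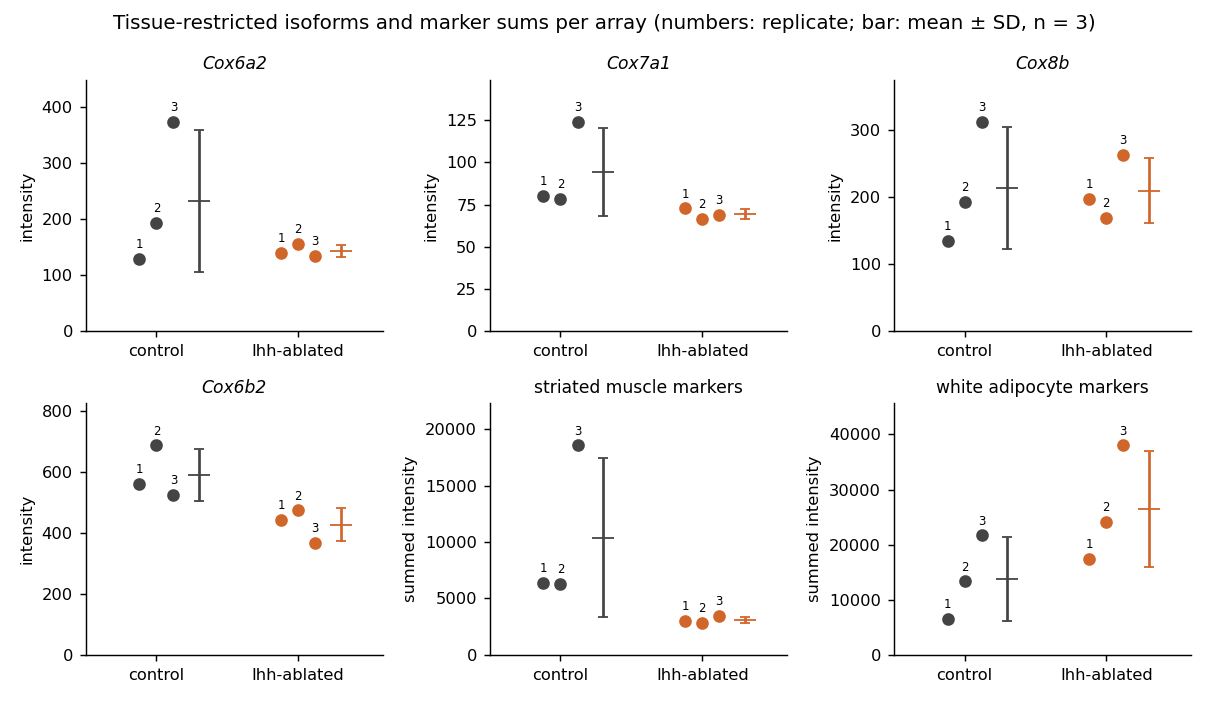
Intensity of Cox6a2, Cox7a1, Cox8b and Cox6b2 on each array (points, numbered by replicate, y axes from 0) with mean ± SD of 3 arrays, and the summed intensity of striated muscle and white adipocyte markers. Control replicate 3 is highest for Cox6a2 (373.3), Cox7a1 (124.2), Cox8b (313.2) and the striated muscle sum (18572).

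Complex V held the other 2 genes that fell, both in its membrane part, and 15 of its 17 genes did not pass. Over all genes 1.53% fell, and nothing is read from 2 calls about the complex or its membrane part. At an unadjusted p under 0.05 (limma) 4 were lower and 0 higher, where 14.2% and 9.99% of all genes were. Atp5g1 had intensities of 1519, 1582 and 1592 on the control arrays and of 1166, 1282 and 1066 after ablation, with a gap between the groups wider than the range of either. It fell 1.34-fold (log2 -0.42, SE 0.08, 95% interval -0.60 to -0.24, adjusted p = 0.0338). Its call was lost without control replicate 1 (adjusted p = 0.105), control replicate 2 (0.101), Ihh-ablated replicate 1 (0.125) or Ihh-ablated replicate 3 (0.110), and also with median-centred arrays (-0.33, 0.124), when dim probe sets were kept in (0.0520), when the variance had no trend (0.104) and with the adipocyte covariate (-0.41, 0.305). A second Atp5g1 probe set was too dim to test, at 37.7 to 51.4 units.

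The other c subunit genes did not pass. Atp5g2 had intensities of 3019, 3325 and 3115 on the control arrays and of 3196, 3261 and 3214 after ablation, overlapping groups with a difference of 0.03 (95% interval -0.09 to 0.16, adjusted p = 0.723). Atp5g3 had intensities of 5100, 5027 and 5077 on the control arrays and of 4868, 4709 and 4917 after ablation, a small shift of -0.07 (95% interval -0.16 to 0.03, adjusted p = 0.343) without overlap. The intervals of both lie above that of Atp5g1, although the difference between the genes was not itself tested. With median-centred arrays the 3 values were -0.33, 0.12 and 0.02.

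Atp5k, subunit e, which takes part in pairing ATP synthases into dimers, had intensities of 3036, 3290 and 3215 on the control arrays and of 2448, 2722 and 2355 after ablation. It fell 1.27-fold (log2 -0.34, SE 0.07, 95% interval -0.50 to -0.19, adjusted p = 0.0375), again without overlap. Its other probe sets both differed by -0.31 and just missed the threshold (adjusted p = 0.0600 and 0.0638). The call was lost without either control replicate 1 (0.0925) or 2 (0.116) or Ihh-ablated replicate 1 (0.141) or 3 (0.127), with median-centred arrays (-0.25, 0.147), when dim probe sets were kept in (0.0574), with array weights (0.0526), when the variance had no trend (0.136) and with the adipocyte covariate (0.270). The probe set that stands for Atp5k is of the kind whose probes can match several transcripts, as are 15 of the 80 that stand for members, so near-identical copies may share its signal.

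**Figure D5:**
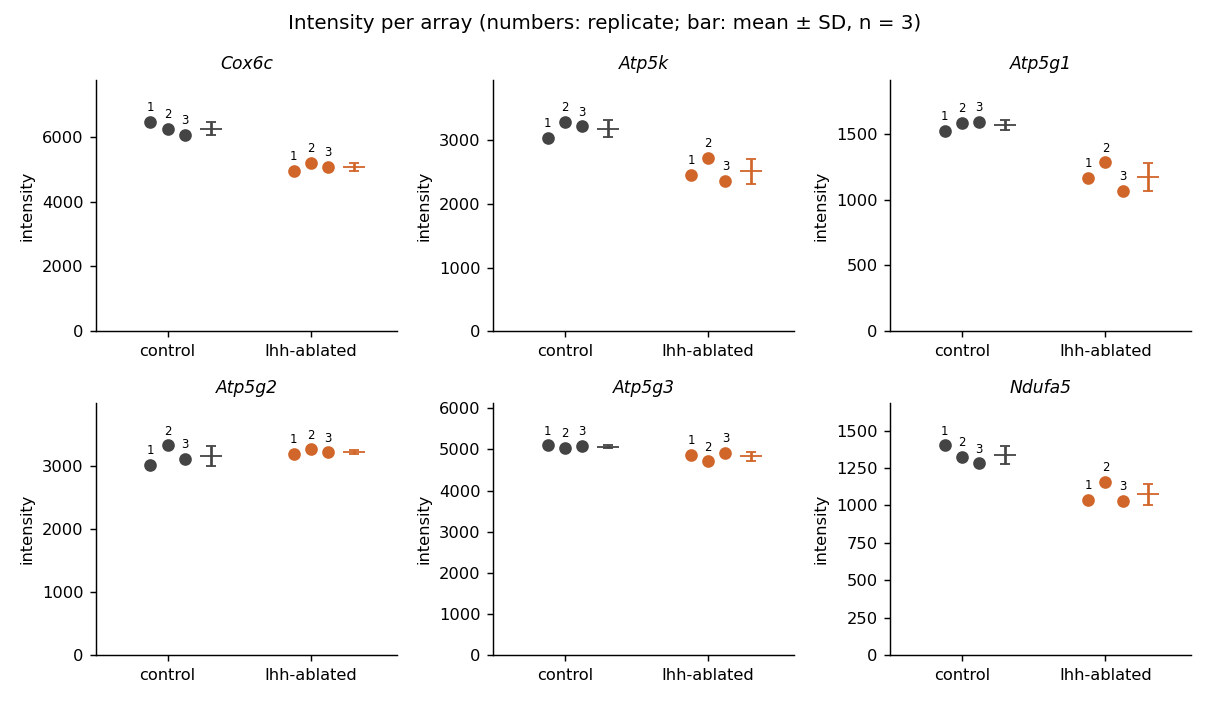
Intensity per array of Cox6c, Atp5k, the 3 c subunit genes Atp5g1, Atp5g2 and Atp5g3, and Ndufa5 (points, numbered by replicate, y axes from 0), with mean ± SD of 3 arrays per group. Groups are apart for Cox6c (6260 ± 204 and 5075 ± 115), Atp5k (3180 ± 131 and 2508 ± 191) and Atp5g1 (1564 ± 39.6 and 1171 ± 108) and overlap for Atp5g2 (3153 ± 157 and 3223 ± 33.6).

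No gene of the rotary head of ATP synthase passed. Its alpha subunit (Atp5a1) read 4120 ± 99.7 in control and 4093 ± 177 in Ihh-ablated samples (-0.01, 95% interval -0.13 to 0.10) and the catalytic beta subunit (Atp5b) 4643 ± 169 and 4504 ± 148 (-0.04, 95% interval -0.16 to 0.07). Gamma (Atp5c1, 0.04) and delta (Atp5d, -0.06) differed as little, and epsilon (Atp5e) by -0.21 (adjusted p = 0.174). Of the stalk genes, Atp5pb showed the largest positive difference of the complex, at 0.09 (2989, 2509 and 2808 in control against 2924, 2790 and 3106 in Ihh-ablated samples, adjusted p = 0.478), beside Atp5h (-0.03), Atp5j (-0.04) and Atp5o (-0.15). Small membrane subunits other than Atp5k lay between -0.13 (Atp5j2) and -0.02 (Atp5l). Differences in complex V ran from -0.42 to 0.09, with a median of -0.06 (0.03 with median-centred arrays).

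Markers of dividing cells fell in the same samples and white adipocyte sums were higher, with overlapping ranges, as given above. The part of either in the lower values of Cox6c, Atp5g1 and Atp5k was not tested. With the adipocyte covariate the differences of these genes were -0.27, -0.41 and -0.36, and none passed (limma adjusted p = 0.172, 0.305 and 0.27). Calls over all genes in both directions were then 29 in place of 437. White adipocyte sums were higher after ablation, so the covariate partly follows genotype and this fit cannot tell fat and genotype apart. In whole tissue, fewer cells of a type and less RNA per cell cannot be told apart.

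Genes that serve the same machinery gave no calls with all 6 arrays, and those named here were chosen after their values were seen. Over 254 tested genes of 10 related lists, which had been drawn up with results of these data known, 0 fell and 0 rose (limma), with 28 lower (11%) and 9 higher at an unadjusted p under 0.05, where 14.2% and 9.99% of all genes were, and a median of -0.05. Without control replicate 3 and Ihh-ablated replicate 2, 8 of the 254 fell, where 4.34% of all genes did. Assembly factors, which build the complexes without being part of them, had a median of 0.00 over 51 genes, and the lowest p among them belonged to Cmc2, a copper-pathway factor of complex IV (-0.43, adjusted p = 0.0765). Mitochondrial ribosomal proteins, which serve the translation of the mitochondrially encoded subunits, had a median of -0.08 over 76 genes. Of these 57 were negative (75%, against 56.7% of all genes), a count not repeated with other scalings. Chain parts outside the name pattern had a median of -0.10 over 15 genes, with the electron carrier cytochrome c (Cycs) at -0.08 (adjusted p = 0.622) and the acyl carrier subunit Ndufab1 at -0.10 (0.387).

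Citrate cycle genes had a median of -0.03 over 19 genes, import genes -0.03 over 32, fatty acid oxidation 0.00 over 15, quinone synthesis -0.06 over 11 and mitochondrial antioxidants -0.08 over 8. Regulators of mitochondrial biogenesis had a median of 0.05 over 26 genes. The factors whose motifs were searched differed by 0.04 (Nrf1, adjusted p = 0.842), 0.28 (Gabpa, 0.220) and 0.19 (Yy1, 0.230), and Polrmt, the mitochondrial RNA polymerase, by -0.51 (0.111). The only mitochondrially encoded subunit with a named probe set, ND5 of complex I, had intensities of 9289, 10316 and 8658 on the control arrays and of 9675, 9512 and 9806 after ablation (0.04, adjusted p = 0.686).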

How the data were processed

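Uterine RNA of 3 control and 3 Ihh-ablated samples was measured on 1 array each, grouped by the sample titles. The deposited values are intensities on a linear scale, 1 for each probe set, as processed by the authors. How probes were summarised, corrected for background and normalized is not stated in any label or header. Of 45101 probe sets 64 controls were left out. The platform annotation gave 1 symbol for 34945 of the others, several for 932 (9 of them with a member's symbol, not used) and none for 9160. Values under 16 were set to 16 (1821 values), log2 was taken, and the lowest 25% by mean log2 (up to 6.16) were left out, which left 33777 probe sets. The test was that of limma 3.58.1 under R 4.3.3 (lmFit, eBayes with an intensity trend, 4 residual degrees of freedom), with Benjamini-Hochberg adjustment over these probe sets. Each difference is Ihh-ablated minus control. The fit was tested on simulated data. Named with values were called members, the members of lowest p, largest difference either way and highest intensity per complex, isoform families and at most a few genes per related list, with further members added for their role after seeing the values. Members and lists were chosen with earlier results of these data known, and subunit roles after seeing the values. The number of arrays limits the precision. Plots used matplotlib 3.10.9.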

Additional observations from a re-analysis of the deposited data

How the results depend on the processing

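The count of 3 member genes stayed within 1.5 times under 10 of 23 alternatives, among them quantile normalization, floors of 64 and 1, leaving out the lowest 50%, robust eBayes and the mean of a gene's probe sets. It was 0 with median-centred arrays (0.831% of all genes fell, in place of 1.53%), without an intensity trend (0.992%) and with the adipocyte covariate (0.161%). It was 1 when dim probe sets were kept in (1%) and 5 without control replicate 3 and Ihh-ablated replicate 2 together (4.34%). At an adjusted p under 0.01 it was 0, where 99 of all 15530 genes were called in either direction. With a fold of at least 1.5 it was also 0, where 307 were called. At an adjusted p under 0.1 it was 7, all lower, where 1022 of all genes were called in either direction. Leaving out 1 array gave 0 to 7. The cause was not tested, except that stricter limits call fewer genes by construction. The members' median of -0.09 moved by less than the spread between replicates in 18 of 20 alternatives and was -0.13 after quantile normalization and 0 with median-centred arrays. Several of the 18 could hardly move it. The trend, robust and replicate block settings change only the variance, and the floors lie far below most members. The alternatives that rescale the arrays were those that moved it. Related lists had 8 falls among 254 genes without both of those arrays (4.34% of all genes fell), Idh2, Hspd1, Hspe1, Mrpl20, Mrpl40, Ndufaf5, Cpt1a and Polrmt.

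The labels do not say whether same-numbered replicates share more than a number. The correlation of their deviations was -0.15, -0.04 and 0.25, which cannot settle this. With the replicate block 4 member genes fell, Cox6b2 added, where 3% of all genes fell, and calls over all genes in both directions were 922 in place of 437. Cox6c was called in 13 of 19 alternatives, Atp5g1 in 11 and Atp5k in 10, and none of the 6 genes followed this way, which also included Ndufa5, Sdhb and Uqcr11, changed direction. Alternatives that change only the variance could not reverse a direction. Differences of dim members rest on signal near background, whose level on these arrays is not known.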
